A study of Homo sapiens with 6 samples.

Results

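The genes described here encode the nuclear part of the mitochondrial respiratory chain and of the ATP synthase: the NDUF genes of complex I and its assembly factors, SDHA to SDHD of complex II, the UQCR genes of complex III, the nuclear COX4 to COX8 genes of complex IV and the ATP5 genes of complex V. They were taken from the bound regions of 4 chromatin immunoprecipitation (ChIP-seq) libraries by the gene symbol that the study's annotation gave each region. The rule found 93 symbols among 16428, and these carried 1551 of 271336 regions. By library the genes held 280 of 46045 RPB1 regions in SHP-1 WT cells, 287 of 41605 RPB1 regions in SHP-1 KO cells, 547 of 102674 phospho-Ser2 RPB1 regions in SHP-1 WT cells and 437 of 81012 in SHP-1 KO cells. Regions were found for 84, 84, 86 and 80 of the symbols in that order, and 70 symbols had a region in all 4 lists. Of 83 structural subunits considered, 76 had a region assigned to them. The other members were 7 assembly factors, 2 readthrough genes, 3 noncoding genes and 5 further genes such as ATP5IF1 and NDUFA4L2.

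The cells were HepG2, a human liver tumour line. SHP-1 KO cells had been cut by CRISPR/Cas9 in PTPN6, the gene of the tyrosine phosphatase SHP-1, with guides to exons of its phosphatase domain. SHP-1 WT cells are labelled a CRISPR control; the study made controls with a nontargeting guide in the same vector, and whether these were the cells used for ChIP-seq is not given in the sources used here. Cells were untreated. The study describes its lines as clonal, grown from single cells after puromycin, so a difference between clones cannot be told apart from an effect of the genotype. The anti-RPB1 antibody recognised RPB1, the largest subunit of RNA polymerase II (RNA pol II), and the other recognised RPB1 phosphorylated on Ser2 of its C-terminal repeats. Each antibody and genotype had 1 library, so no comparison below has a replicate or a test, and every ratio compares libraries and not conditions. The value of a region is its fold enrichment, the ChIP signal at its summit over the matching input as the peak caller wrote it. Read counts are not part of the files, and the depth behind these values is unknown.

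Markers of the liver lineage were read first. All 9 hepatocyte genes examined, among them ALB, APOB and HNF4A, had an RPB1 region at their start in both genotypes. PTPRC, CD3E and HBB of blood cells, COL1A1 and COL1A2 of connective tissue and MYH7 and ACTC1 of muscle had none in either library. PTPN6 itself carried an assigned promoter RPB1 region of 24.0 in SHP-1 WT and 17.2 in SHP-1 KO cells. Polymerase at a promoter does not report on small deletions in exons, so it checks neither label.

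Electrons from NADH enter the chain at complex I and those from succinate at complex II. They pass through ubiquinone to complex III, through cytochrome c to complex IV and then to oxygen, while complexes I, III and IV pump the protons that drive the ATP synthase. Nearly all subunits are encoded in the nucleus and are made in every tissue, with a few tissue-restricted isoforms, and liver uses the chain heavily. RNA pol II is usually densest close to the start of an active gene, and its Ser2-phosphorylated form is associated with elongation and gathers towards and past the 3' end.

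RPB1 sat at the start of nearly every one of these genes in both genotypes. Position was judged on the reference annotation, since the nearest-gene symbol of a region often named a neighbour. A promoter region overlapped the 1 kb on either side of a start. A body region had its summit more than 1 kb inside the gene, and an end region had its summit within 3 kb past the gene. Body and end regions with a summit within 1 kb of the start of another protein-coding gene were left out. A long region could count both as a promoter region and, by its summit, as a body or end region. Of 98 protein-coding members, 91 had a promoter RPB1 region in SHP-1 WT cells and the same 91 in SHP-1 KO cells. None was found in 1 genotype only, whereas over all 20020 protein-coding genes 60.1% and 58.1% had a region, 4.51% of those with one in SHP-1 WT cells lacked it in SHP-1 KO cells, and 1.22% of those with one in SHP-1 KO cells lacked it in SHP-1 WT cells. The 7 members without a region were COX4I2, COX6A2, COX6B2, COX7B2, COX8C, UQCRHL and ATP5MGL. The first 5 are the isoforms of complex IV known from lung, muscle or testis, and the other two are close relatives of UQCRH and ATP5MG. COX7A1, the isoform of heart and skeletal muscle, had a low region of 7.51 in SHP-1 WT and 4.75 in SHP-1 KO cells. All 77 subunits that are made in every tissue had one.

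Many of these genes start head to head with a neighbour, so that 1 polymerase region serves both and cannot be divided between them. A start on the opposite strand within 1 kb was found for 30 of 98 members, which is 30.6% with a 95% Wilson interval of 22.4 to 40.3%. The share was 10.0% of all protein-coding genes, 16.4% of those with promoter RPB1 in both genotypes, 34.6% of mitochondrial ribosomal protein genes and 14.9% of cytosolic ribosomal protein genes. SDHD and TIMM8B, an import chaperone of the intermembrane space, start 117 bp apart. SDHA and CCDC127 start 167 bp apart, NDUFB5 and the mitochondrial ribosomal gene MRPL47 start 156 bp apart, and NDUFA7 and the cytosolic ribosomal gene RPS28 start 121 bp apart. ATP5PF, which encodes coupling factor 6 of the ATP synthase stalk, starts 68 bp from GABPA, the DNA-binding subunit of a factor known to act on respiratory genes. In 25 of the 91 members, in each genotype, the highest promoter RPB1 region bore the symbol of a gene outside the rule. NDUFA2, NDUFB8, NDUFV1 and UQCRQ received no symbol at all for this reason, although their starts held 30.4, 18.0, 30.0 and 41.9 in SHP-1 WT cells.

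Binding motifs known from respiratory gene promoters were searched on both strands of the RefSeq promoters of GRCh38.p14, which run from 250 bases before to 50 after each start: the ETS core CCGGAAG and the longer NRF1 and YY1 motifs, of 10 and 11 letters. The promoter table matched 83 member genes with 101 promoters. The ETS core was in 25 of 101 member promoters, or 24.8%, against 10.3% of all 35116 promoters. NRF1 was in 5 member promoters, 4.95% against 1.24%, and YY1 in 6, 5.94% against 0.849%. The promoters printed here are NDUFV3, which had the most RPB1 of the whole group, NDUFB4, which held an NRF1 motif, and the 5 subunits with the smallest SHP-1 KO to SHP-1 WT ratio described further on. Each runs 5' to 3' on the gene's strand and leaves out all annotated exons, and capitals mark an ETS core or, in NDUFB4, the NRF1 motif, on either strand. They lie at chr21:42893059-42893267 (plus strand, NDUFV3), chr3:120596086-120596327 (plus, NDUFB4), chr19:1605474-1605712 (minus, UQCR11), chr2:97645812-97646061 (plus, COX5B), chr11:63974370-63974619 (plus, COX8A), chr12:53676084-53676175 (minus, ATP5MC2) and chr1:17054033-17054282 (minus, SDHB).
NDUFV3: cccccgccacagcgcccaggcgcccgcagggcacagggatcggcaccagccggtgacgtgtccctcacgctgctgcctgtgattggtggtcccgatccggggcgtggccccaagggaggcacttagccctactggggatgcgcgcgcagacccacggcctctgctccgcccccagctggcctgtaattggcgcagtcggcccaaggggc
NDUFB4: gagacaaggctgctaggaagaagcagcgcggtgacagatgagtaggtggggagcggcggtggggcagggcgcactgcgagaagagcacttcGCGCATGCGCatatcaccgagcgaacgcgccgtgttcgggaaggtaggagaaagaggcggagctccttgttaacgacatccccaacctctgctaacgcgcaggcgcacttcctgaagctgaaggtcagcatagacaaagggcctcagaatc
UQCR11: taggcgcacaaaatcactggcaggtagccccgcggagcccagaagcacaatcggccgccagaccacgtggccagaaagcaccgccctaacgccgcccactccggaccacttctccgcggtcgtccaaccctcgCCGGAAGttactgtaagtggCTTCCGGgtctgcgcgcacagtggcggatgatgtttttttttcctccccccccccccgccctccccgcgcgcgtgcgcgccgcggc
COX5B: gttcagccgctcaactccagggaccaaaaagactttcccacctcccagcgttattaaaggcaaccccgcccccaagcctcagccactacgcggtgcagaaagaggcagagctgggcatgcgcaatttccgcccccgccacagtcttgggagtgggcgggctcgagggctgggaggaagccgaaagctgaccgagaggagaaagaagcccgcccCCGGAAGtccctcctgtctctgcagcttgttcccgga
COX8A: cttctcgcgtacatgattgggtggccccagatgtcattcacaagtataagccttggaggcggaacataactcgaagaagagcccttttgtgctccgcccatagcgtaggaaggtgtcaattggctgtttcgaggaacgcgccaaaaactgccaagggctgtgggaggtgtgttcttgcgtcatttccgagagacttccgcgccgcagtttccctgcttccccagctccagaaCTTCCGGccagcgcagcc
ATP5MC2: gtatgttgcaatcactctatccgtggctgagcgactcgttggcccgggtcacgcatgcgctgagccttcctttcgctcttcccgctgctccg
SDHB: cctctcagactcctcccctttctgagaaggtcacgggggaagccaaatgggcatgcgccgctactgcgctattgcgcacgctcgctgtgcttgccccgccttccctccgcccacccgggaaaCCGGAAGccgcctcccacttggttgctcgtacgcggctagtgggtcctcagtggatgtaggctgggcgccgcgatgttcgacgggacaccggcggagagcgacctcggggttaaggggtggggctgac
UQCR11 held the ETS core on both strands, COX5B and SDHB held it on their own strand and COX8A on the opposite one. NDUFV3 and ATP5MC2 held none of the 3 motifs in the stretch shown, which says nothing about the factors. ATP5PF and ATP5MG, among the 5 subunits with the largest ratio, held the core too. SDHB was also among the 5 members with a YY1 motif, which lay outside the stretch shown. The median log2 ratio of promoter RPB1 was -0.52 for the 23 members with an ETS core and -0.45 for the 51 without. It was -0.38 for the 5 members with NRF1 and -0.47 for the 69 without. For YY1 it was -0.83 for 5 and -0.44 for 69. These gaps were not tested.

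Promoter RPB1 of the group was lower in the SHP-1 KO library, as was that of genes in general. The median over the 91 members was 29.6 in SHP-1 WT and 22.9 in the SHP-1 KO library. The median log2 ratio was -0.44, and over all 11497 genes with a region in both genotypes it was -0.48. The promoter RPB1 ratios of single genes given here contain this shift of genes in general. At least 1.5-fold lower values were found for 30 of 91 members and higher ones for none, where the whole genome had 39.7% and 1.16%. After division by the median of all genes, 4 members were lower and 6 higher by 1.5-fold, and the whole genome had 8.63% and 8.53%. When regions were instead counted by their assigned symbol, 73 members had a promoter region in both genotypes, 23 were lower and 1, COX4I1, was higher, where all assigned genes had 38.2% and 2.12%. The COX4I1 value came from the switch of a symbol: its start held 40.7 in SHP-1 WT and 36.7 in SHP-1 KO cells, in a region assigned to EMC8, which starts 151 bp away. A like switch gave ATP5F1B 67.1 and 4.67 by symbol, where its start held 34.8 in SHP-1 KO cells in a region assigned to SNORD59A. Gene values below are therefore those by position. The summit lay more than 1 kb from the start in NDUFC1, NDUFS6, NDUFA11 and NDUFA4L2 in at least 1 genotype, and without these 4 the median log2 ratio stayed -0.44 and 29 of 87 were lower.

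**Figure D1:**
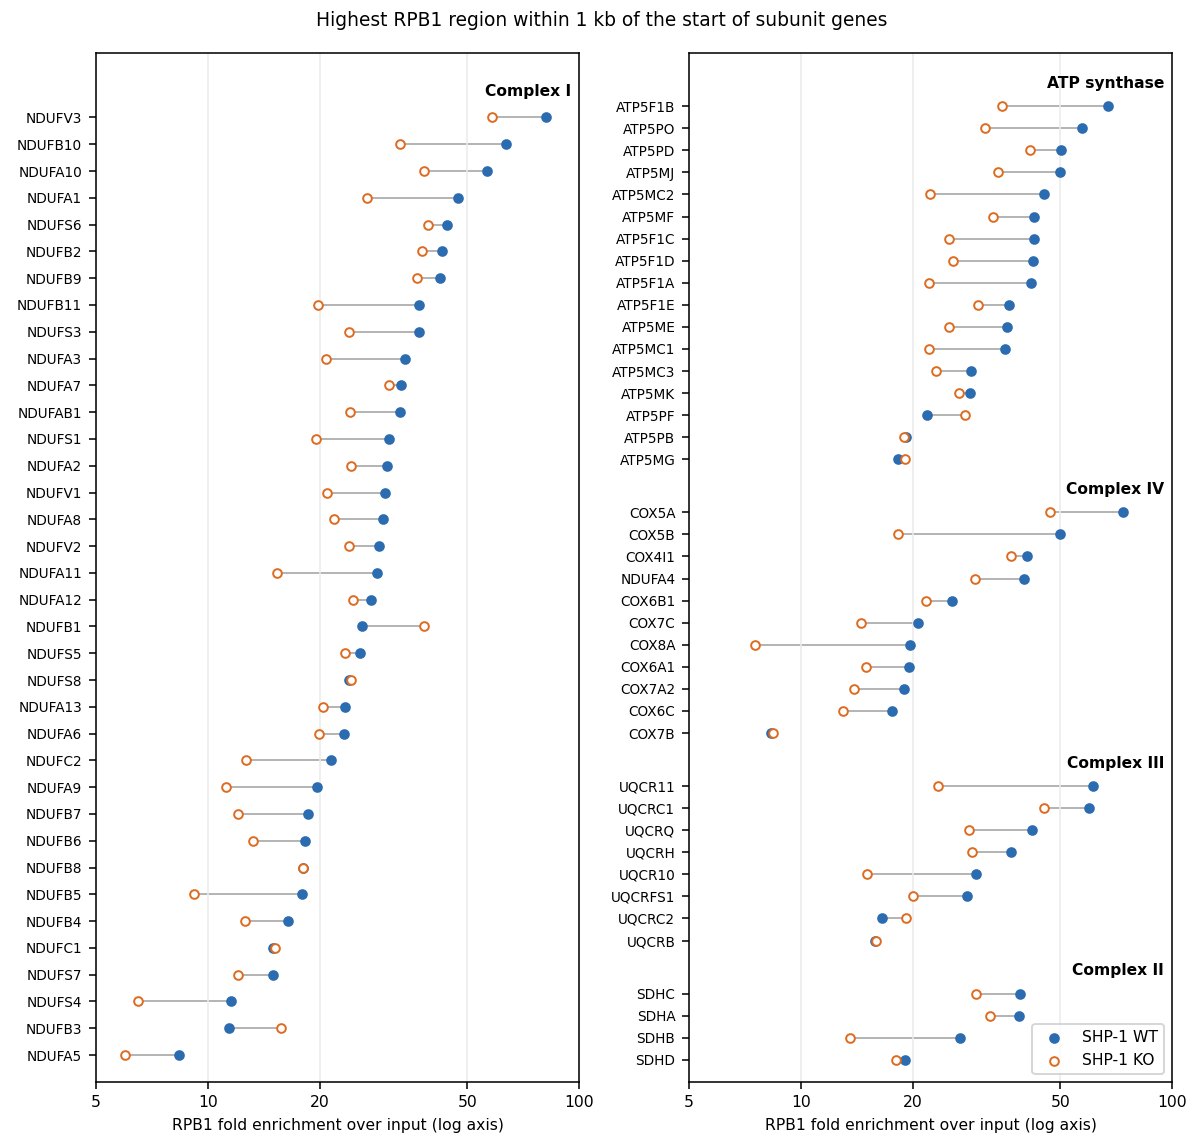
Promoter RPB1 fold enrichment (horizontal axis, log scale) of the nuclear respiratory chain and ATP synthase subunits, grouped by complex, with 1 point for the SHP-1 WT and 1 for the SHP-1 KO library of each gene, 1 complex I subunit being left out. NDUFV3 is highest of complex I at 81.2 and 58.4, and UQCR11, COX5B and COX8A show the widest gaps between genotypes.

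Complex I, which oxidises NADH, spanned the widest range. All 37 subunits had promoter RPB1 in both genotypes, with medians of 27.6 (SHP-1 WT) and 20.8 (SHP-1 KO). Among them 12, or 32.4%, were at least 1.5-fold lower, where all genes had 39.7%. NDUFV3, an accessory subunit of the NADH-oxidising module, was highest, at 81.2 and 58.4. NDUFB10, of the membrane arm, held 63.7 and 32.8, and NDUFA10 held 56.6 and 38.3. NDUFA5 was lowest, at 8.38 and 6.01, followed by NDUFB3 at 11.4 in SHP-1 WT and 15.8 in SHP-1 KO cells and by NDUFS4, often mutated in Leigh syndrome, at 11.5 and 6.49. The core subunits that carry the flavin and iron-sulfur clusters lay between these: NDUFS1 held 30.7 and 19.6, NDUFV1 30.0 and 21.0, NDUFV2 29.0 and 24.0, NDUFS8 24.0 and 24.3 and NDUFS7 14.9 and 12.0. The spread among the subunits, from 8.38 to 81.2 in SHP-1 WT cells, was wider than the gap between genotypes of any of them. NDUFB1 had the largest ratio of the group, 1.47, from 26.1 in SHP-1 WT to 38.2 in SHP-1 KO cells, and it shares its start region with CPSF2, 263 bp away.

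Complex II, which is also an enzyme of the citric acid cycle, has 4 subunits. SDHA, the flavoprotein, held 38.8 and 32.4, SDHC, a membrane anchor, 39.0 and 29.6, and SDHD, the other anchor, 19.1 and 18.0. SDHB, the iron-sulfur subunit, was the exception at 26.8 in SHP-1 WT and 13.6 in the SHP-1 KO library, a ratio of 0.508.

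All 8 subunits of complex III had promoter RPB1, with a median of 33.2 in SHP-1 WT and 21.7 in SHP-1 KO cells. UQCR11, a small membrane subunit, held 61.0 in SHP-1 WT and 23.4 in the SHP-1 KO library, a log2 ratio of -1.39, and UQCR10 held 29.6 and 15.1. The core protein genes behaved apart: UQCRC1 held 59.6 and 45.1, and UQCRC2 held 16.5 and 19.2. The gene of the Rieske iron-sulfur protein, UQCRFS1, held 28.0 and 20.1.

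Complex IV, cytochrome c oxidase, had the lowest level of the 5 complexes. Its 11 subunits made in every tissue had a median of 20.6 in SHP-1 WT cells, at the 31.2 percentile of all genes with a region, and of 15.0 in SHP-1 KO cells. COX5A stood out at 73.7 and 46.8. COX5B had the smallest ratio of all subunits, 0.364, from 50.0 in SHP-1 WT to 18.2 in SHP-1 KO cells, and COX8A came next at 0.382, from 19.7 to 7.53. COX7B was low and alike in both, at 8.33 and 8.43. NDUFA4, named for complex I but a subunit of complex IV, held 39.9 and 29.4.

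The ATP synthase had the highest level. The median of its 17 subunits was 41.6 in SHP-1 WT cells, at the 74.3 percentile, and 25.7 in SHP-1 KO cells, at the 63.9 percentile. At least 1.5-fold lower values were found for 7 of 17, where all genes had 39.7%. The catalytic subunits were high: ATP5F1A held 41.6 and 22.1 and ATP5F1B 67.1 and 34.8. ATP5PO, which joins the stalk to the catalytic head, held 57.2 and 31.3. The 3 genes of the proton-carrying c ring encode the same mature protein, and they held 35.6 and 22.2 (ATP5MC1), 45.1 and 22.3 (ATP5MC2) and 28.8 and 23.1 (ATP5MC3). ATP5PF was higher in SHP-1 KO cells, 27.7 against 21.9, in the region it shares with GABPA, and ATP5MG was alike at 18.3 and 19.1. ATP5IF1, the inhibitor of ATP hydrolysis by the enzyme, held 43.6 and 23.3.

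The 8 complex I assembly factors found by position had a median of 33.5 (SHP-1 WT) and 24.6 (SHP-1 KO). Of the 8, 2 were at least 1.5-fold lower, where all genes had 39.7%. NDUFAF8 held 38.8 in SHP-1 WT and 17.8 in the SHP-1 KO library, a log2 ratio of -1.12. NDUFAF3 held 36.4 and 37.1.

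**Figure D2:**
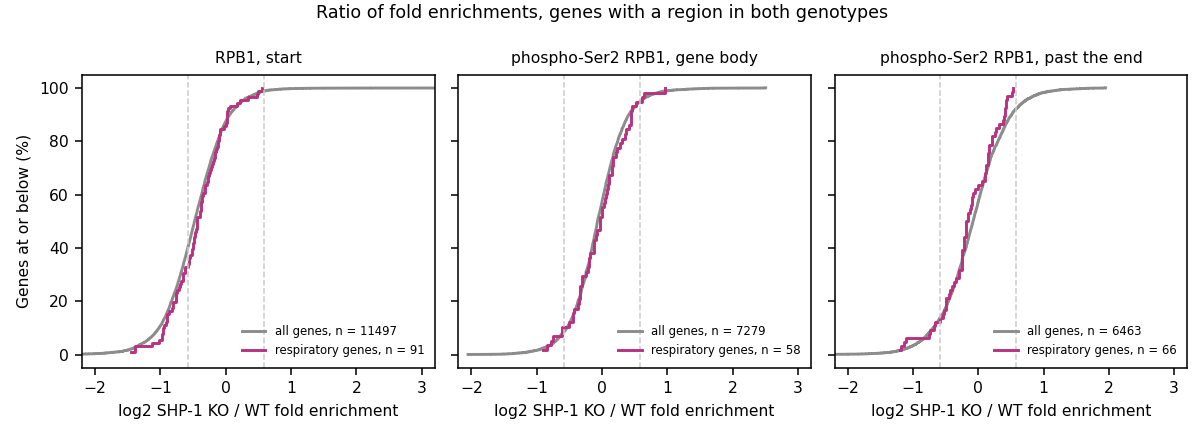
Cumulative share of genes (vertical axis, %) by the log2 ratio of SHP-1 KO to SHP-1 WT fold enrichment (horizontal axis). Curves show the respiratory genes and all genes with a region in both libraries. The panels give promoter RPB1, phospho-Ser2 RPB1 within the gene and phospho-Ser2 RPB1 past its end. Dashed lines mark 1.5-fold. For promoter RPB1 the respiratory genes follow the curve of all genes, with medians of -0.44 and -0.48.

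The pathway genes that the rule did not take in were read in the same way. All 34 genes of a list of cytochromes and assembly factors of the chain had promoter RPB1 in both genotypes. Of these, 7 were at least 1.5-fold lower and 1 higher, where all genes had 39.7% and 1.16%. Their median log2 ratio was -0.23, against -0.48 in all genes. SURF1, an assembly factor of complex IV, held 66.3 and 25.9, ACAD9 of complex I 33.4 and 13.3, and TMEM70 of the ATP synthase 43.7 and 18.6. CYCS, the gene of cytochrome c itself, held 35.3 in SHP-1 WT and 55.0 in the SHP-1 KO library. Of 9 regulators of these genes, 8 had a region in both genotypes, with NRF1 at 53.7 and 31.0, ESRRA at 44.6 and 25.6, and TFAM at 43.1 and 35.9. PPARGC1B had one in SHP-1 WT cells only, at 5.51. Mitochondrial ribosomal protein genes had a median log2 ratio of -0.44 and cytosolic ones of -0.35, side by side with the -0.44 of the respiratory genes.

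Past the gene ends, RPB1 regions were found for 50 of the 83 structural subunits in SHP-1 WT cells and 48 in the other genotype. Over all 20020 protein-coding genes, 4106 and 3856 had one. Among the subunits 42 were shared, leaving 8 and 6 in a single genotype. Of all genes with an end region, 26.8% and 22% had none in the other genotype. The end values had medians of 6.51 and 6.46 over the subunits with a region. Inside the genes RPB1 was sparse and low. A body region was found in 48 members in SHP-1 WT and 49 in the SHP-1 KO library, 38 of them in both. In 21 of the 38 the highest regions of the genotypes did not overlap. That left 10 in SHP-1 WT cells only and 11 in SHP-1 KO cells only, where 23.2% and 16.9% of all genes with a body region in the respective genotype had none in the other. Over the structural subunits those found in 1 genotype were weak, between 3.92 and 6.24 in SHP-1 WT and between 3.61 and 6.82 in SHP-1 KO cells. The highest RPB1 value of a gene lay at its start in 75 of the 77 subunits made in every tissue. The exceptions in SHP-1 WT cells were NDUFS7, where the highest body value was 34.5, against 6.34 in SHP-1 KO cells at a summit 2007 bp away, in a region that bore the symbol of the neighbour GAMT, and NDUFC1, where a body region of 26.5 and 21.2 bore that of MGARP. In SHP-1 KO cells they were NDUFC1 and, with an end region of 23.2, NDUFS7. By the study's own annotation, body regions made up 33.6% of the members' RPB1 regions in SHP-1 WT cells and 38.3% in SHP-1 KO cells. Of those, 36.2% and 35.5% touched the transcript to which they were assigned, and the rest did not.

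For phospho-Ser2 RPB1 the share of body regions was 51.0% in SHP-1 WT and 54.9% in the SHP-1 KO library, of which 44.8% and 45.0% touched the assigned transcript. Over all genes the body share was 64.0% and 63.4% for phospho-Ser2 RPB1 and 40.4% and 39.4% for RPB1. In 42 of 77 subunits in SHP-1 WT cells and in 44 of the 75 with a region in SHP-1 KO cells, the highest value of the gene lay past its end, which is 54.5% and 58.7%. The share was 41.5% and 40.9% over all genes with promoter RPB1 in both genotypes. The strongest summit stood at a median of 1.06 gene lengths from the start in SHP-1 WT and 1.07 in SHP-1 KO cells, and at 0.992 and 0.989 in those other genes. It lay within 1 kb of the end or past it in 65.3% of subunits in SHP-1 WT cells, with a 95% interval of 54.1 to 75.1%, and in 69.9% in SHP-1 KO cells, with an interval of 58.6 to 79.2%. In those other genes the shares were 54.9% and 54.7%. The respiratory genes are shorter, with a median length of 9242 bp in these subunits against 26720 bp, and the part of length in this difference was not tested.

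**Figure D3:**
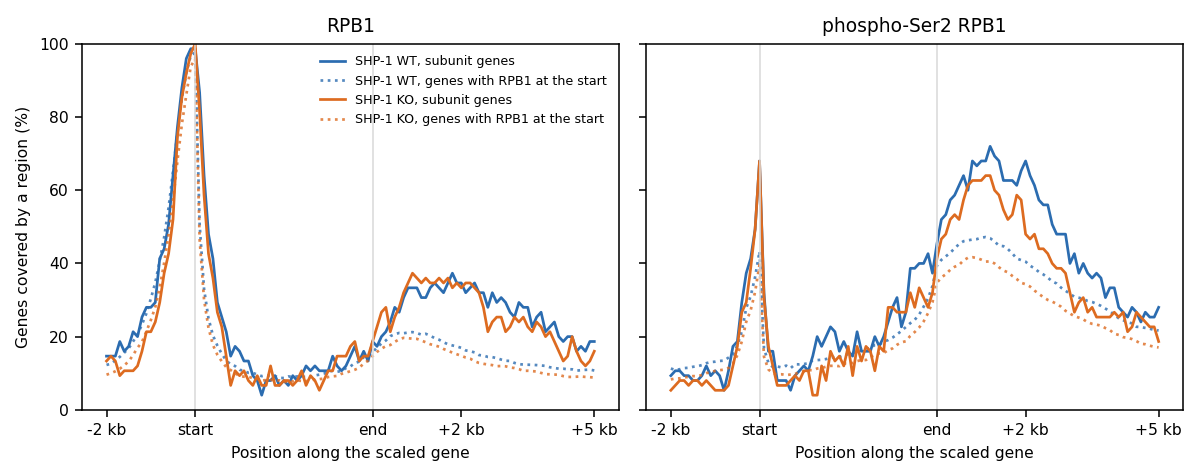
Share of genes (vertical axis, %) covered by a region at each place from before the start, along the scaled gene and past the end (horizontal axis), for 75 subunits of at least 2 kb and, dotted, for genes with RPB1 at the start in both genotypes. RPB1 covers nearly all subunits at the start, while phospho-Ser2 RPB1 covers 68.0% there in both and, past the end, up to 72.0% in SHP-1 WT and 64.0% in the SHP-1 KO library.

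Along the scaled gene, phospho-Ser2 RPB1 covered 68.0% of the 75 subunits at the start in both genotypes, 16.0% and 17.3% at the middle, and more again past the end. Past the end, coverage reached at most 72.0%, at 1.2 kb, in SHP-1 WT cells, above the start, and 64.0%, at 1.1 kb, in SHP-1 KO cells, below it. In all genes with RPB1 at the start the corresponding values were 43.3% and 39.7% at the start and 47.2% and 41.7% past the end. At 5 kb past the end coverage of the subunits was down to 28.0% in SHP-1 WT and 18.7% in the SHP-1 KO library. The highest end values of the subunits belonged to NDUFS7, with 12.7 in SHP-1 WT and 17.0 in SHP-1 KO cells, NDUFA11, with 15.8 and 13.3, COX7C, with 13.5 and 12.1, and COX7A2, with 12.8 and 11.1.

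Between genotypes, phospho-Ser2 RPB1 within the genes was called in fewer members in SHP-1 KO cells, as in all genes, and the values of shared regions had a median ratio near 1. Here 76 members had a body region in SHP-1 WT and 63 in the SHP-1 KO library. Of these 58 were shared, 18 were found in SHP-1 WT cells only and 5 in SHP-1 KO cells only, against 18.3% and 6.36% of all genes with a body region and 17.1% and 6.1% of those with promoter RPB1 in both. In the 58 shared genes the median log2 ratio was -0.03, with -0.07 in all genes, and 6 were at least 1.5-fold lower and 3 higher, where the background was 8.5% and 4.99%. In 31 of the 58, and in 58.8% of all genes with a value in both, the highest regions of the genotypes did not overlap, so these ratios compare different places in a gene. In the other 27 members the median log2 ratio was -0.12, with -0.10 in all such genes, and 5 were lower and none higher, where the background was 11.3% and 4.97%. This split was made after seeing the data. By assigned symbol 58 genes were shared, too, and 4 were lower and 4 higher, where it was 9.96% and 6.01%. The structural subunits found in SHP-1 WT cells only held values from 3.05 to 5.28.

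All 4 subunits of complex II had phospho-Ser2 RPB1 in the body in SHP-1 WT cells, at 4.57 (SDHA), 3.87 (SDHB), 7.88 (SDHC) and 3.05 (SDHD), and SDHC alone had it in SHP-1 KO cells, at 4.69. Over all genes with such a region, 18.3% in SHP-1 WT and 6.36% in SHP-1 KO cells had none in the other genotype. SDHB also had a promoter region in SHP-1 WT cells only, at 3.98, and an end region in both, at 5.09 and 4.29. The other subunits had a promoter region in both genotypes, at 2.88 and 4.41 (SDHA), 7.17 and 3.62 (SDHC) and 5.90 and 8.11 (SDHD). SDHD also had an end region in both, at 5.57 and 5.56. By the study's own annotation, SDHD had a body region with these values in both genotypes. Of the complex IV subunits made in every tissue, COX6A1, COX6B1, COX6C and COX8A had a body region in SHP-1 WT cells only, and COX5B in SHP-1 KO cells only, at 2.81. Of the 8 subunits of complex III, 7 had one in SHP-1 WT cells, and in SHP-1 KO cells all 8 did, UQCRQ at 6.69.

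Among the members whose highest body regions overlapped, NDUFC1 had the smallest ratio, at 4.80 and 2.56, followed by NDUFB10, at 31.5 and 17.5, in regions assigned to the small nucleolar RNAs SNORA64 and SNORA10, by SDHC and by NDUFB7, at 6.86 and 4.50. The NDUFB10 regions also overlapped its start window, so its highest start and body values were the same. The promoter regions assigned to NDUFB10 itself held 5.37 in SHP-1 WT and 3.78 in SHP-1 KO cells. NDUFS8 had the largest ratio among the members with overlapping regions, at 4.37 and 5.99. The 4 larger ratios of the whole group came from regions at different places. NDUFC2, of the membrane arm of complex I, held 3.81 in SHP-1 WT cells at 3046 bp and 7.47 in SHP-1 KO cells at 10867 bp from its start, where a region of 9.33 with the symbol THRSP covered the same place in SHP-1 WT cells with its summit past the gene. The summits of ATP5PO, at 2.16 and 3.38, of ATP5PB, at 4.34 and 6.65, and of ATP5F1D, at 3.65 and 5.24, lay 8331, 2970 and 448 bp apart. The low ratio of COX7C, at 5.05 and 2.93, came from summits 1491 bp apart.

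At the starts, 73 members had phospho-Ser2 RPB1 in SHP-1 WT and 71 in SHP-1 KO cells, and 67 were shared. Of the shared, 9 were lower and 8 higher, where all genes had 14.8% and 10.6%. The highest start regions did not overlap in 9 of the 67, against 14.1% of all such genes. In 8 of the 67 a summit lay more than 1 kb from the start. Without both kinds 53 members remained, with 7 lower and 5 higher, where all genes had 598 and 433 of 4214. This split, too, was made after seeing the data. The subunits found in SHP-1 WT cells only were COX6B1, COX6C, NDUFA9, NDUFB4, SDHB and UQCRFS1, and those in SHP-1 KO cells only included COX7B, NDUFB7 and NDUFB8, where 19.8% and 11.5% of all genes with a region were found in the respective genotype only. UQCR11 held 8.35 in SHP-1 WT and 3.41 in SHP-1 KO cells and ATP5F1B 12.5 and 6.81, and both antibodies gave lower values at these starts in SHP-1 KO cells.

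Past the ends 66 members had a value in both, the median log2 ratio was -0.17 against -0.08 in all genes, 8 were at least 1.5-fold lower and none higher, and the background was 13.7% and 7.75%. The highest end regions overlapped in 52 of the 66, where the median log2 ratio was -0.14, with -0.10 in all such genes, and 5 were lower and none higher, the background being 15.1% and 7.57%. Overlapping regions gave UQCRC1 of complex III 11.7 and 6.93 and COX4I1 of complex IV 5.59 and 2.47. UQCR10, at 7.02 and 3.05, UQCRC2, at 6.70 and 3.05, and NDUFB3 of complex I, at 5.83 and 2.71, had regions that did not overlap, with summits 1314, 1687 and 1033 bp apart.

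**Figure D4:**
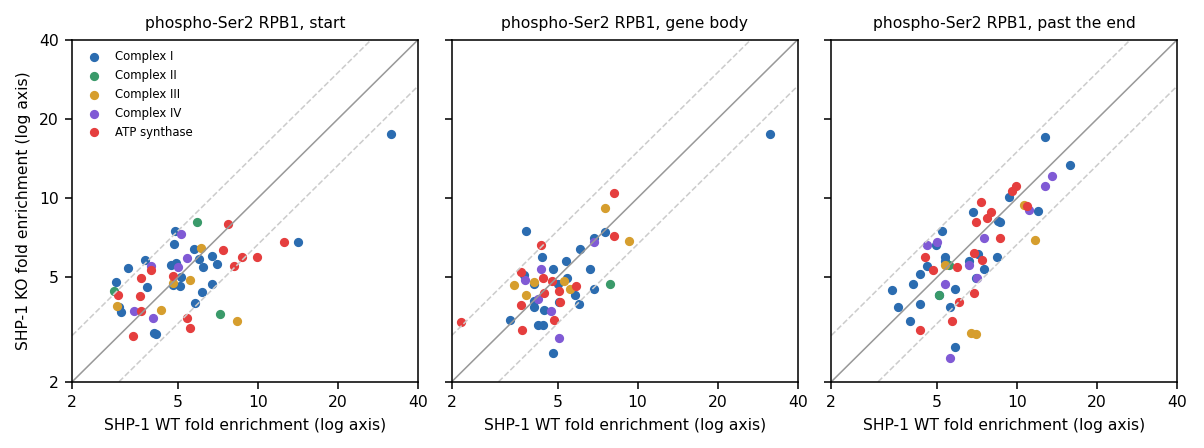
Phospho-Ser2 RPB1 fold enrichment in the SHP-1 WT (horizontal axis) and SHP-1 KO library (vertical axis), both log scales, for the subunits with a region in both, at the start, within the gene and past its end, colored by complex, with 1 complex I subunit left out. Dashed lines mark 1.5-fold. NDUFB10 lies below the diagonal at 31.5 and 17.5 within the gene, in regions assigned to SNORA64 and SNORA10 that also give its point at the start. COX4I1 lies below the diagonal at 5.59 and 2.47 past the end, while NDUFC2, above it at 3.81 and 7.47, compares regions at different places.

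A few places stood apart from the pattern of single genes. Upstream of NDUFC2 on chromosome 11, the 20083 bp between 1 kb before its start and the end of ALG8, chr11:78080863-78100945 of the build used by the files, held 14 RPB1 regions covering 7158 bp in SHP-1 WT cells, the highest at 11.6. In SHP-1 KO cells it held 1 region of 253 bp, at 4.22. Phospho-Ser2 RPB1 went the same way, from 18 regions over 11669 bp, the highest at 10.8, to 1 region of 237 bp, at 3.99. The flanks differed less: ALG8, an enzyme of N-glycosylation, held 3 RPB1 regions in SHP-1 WT and 9 in SHP-1 KO cells and 10 and 9 phospho-Ser2 regions, and the NDUFC2 start held 21.4 and 12.7. Distal RPB1 regions of the whole group numbered 52 in SHP-1 WT and 40 in SHP-1 KO cells, and 11 of the former and 1 of the latter bore the symbol NDUFC2.

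NDUFA4L2, a hypoxia-responsive relative of NDUFA4, lies next to SHMT2 on chromosome 12. In SHP-1 WT cells its start lay in an RPB1 region of 27.0 with the summit 757 bp inside the gene. In SHP-1 KO cells a single RPB1 region ran over both genes, with 38.0 at a summit 6694 bp from the start, in SHMT2, so RPB1 at the NDUFA4L2 start cannot be compared. The phospho-Ser2 RPB1 summits of the genotypes lay 19 bp apart, inside NDUFA4L2, and held 19.5 in SHP-1 WT and 26.0 in SHP-1 KO cells. COX4I2, the lung isoform, shows the opposite problem. It received 33 regions by symbol over the 4 lists, but the nearest lay 20652 bp from its start, and none of the lists had a region in the gene or within 1 kb of it.

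**Figure D5:**
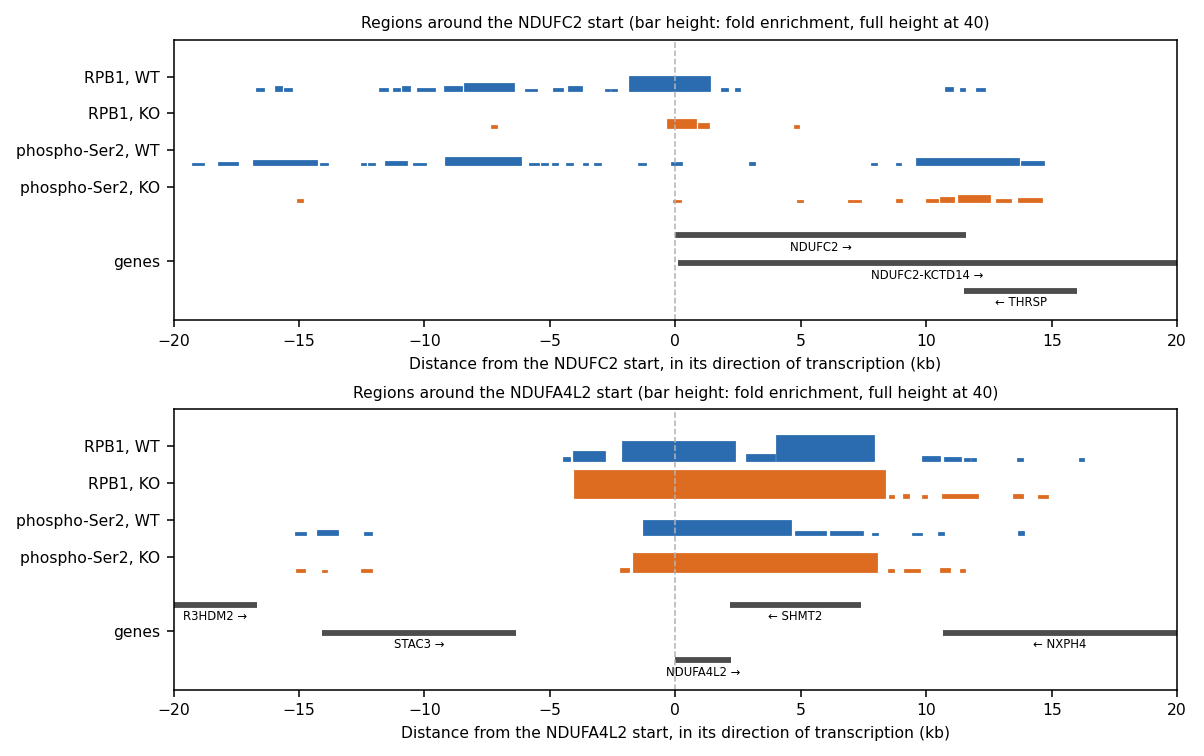
Regions of the 4 lists around NDUFC2 and NDUFA4L2 by distance from the gene's start (horizontal axis, kb), 1 row per library (SHP-1 WT blue, SHP-1 KO orange), bar height standing for fold enrichment and bars below for genes. The stretch between NDUFC2 and ALG8 holds 14 RPB1 and 18 phospho-Ser2 regions in SHP-1 WT cells and 1 of each in SHP-1 KO cells.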

How the data were processed

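ChIP-seq regions of RPB1 and phospho-Ser2 RPB1 were analysed in HepG2 cells of both genotypes, 1 library each; the 2 input libraries were not analysed here. Per the labels and the study's methods, single-end reads were trimmed with Trimmomatic, aligned to hg38 (GRCh38) with BWA and called as narrow peaks with MACS2 against the matching input; versions are not given in the sources used here. The authors deposited, for each region, a fold enrichment over input (a ratio), −log10 p-values and q-values, the summit and a nearest-gene annotation; every region had a −log10 q of at least 1.30574. A further deposited table of a differential comparison of RPB1, with its p-values, was not used.

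Genes were described by the highest region of each kind, first by assigned symbol. Values by position, on GENCODE release 44 canonical transcripts, were chosen after seeing the data, because symbols moved between neighbours; they are the values given for single genes. Ratios past 1.5-fold were counted, with no test, beside the same count over all genes. With peaks but no read counts, the depth per library is unknown; Wilson 95% intervals of shares cover counting error only. Promoter sequences were RefSeq, GRCh38.p14. Members, lists and comparisons were chosen with earlier results of these data known. Single genes were named by rule: subunits with no region or with a region in 1 genotype only, the highest and lowest promoter RPB1 of each complex, the 5 largest and 5 smallest ratios of promoter RPB1 and of body phospho-Ser2 RPB1, and SDHA to SDHD; other genes were added after their values were seen. Scripts (SciPy 1.17.1, NumPy 2.4.6, pandas 2.3.3, Python 3.11.15) were tested on simulated regions. That test required the known ratios to be returned for promoter values by assigned symbol, and set no such requirement for values by position. Alternatives were a −log10 q of at least 5, a 50% reciprocal overlap, 2-fold, division by the median of all genes, area in place of height, values by position and, also after seeing the data, genes whose highest regions lay at the same place in both genotypes. Some genes among the members and markers are not reported here by name, and counts over the lists include them.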

Additional observations from a re-analysis of the deposited data

How the results depend on the processing

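Each value by assigned symbol was recomputed under other choices, 79 values in all, and 61 stayed close: counts within 1.5 times or both at most 1, medians and shares within the interval of the value first computed. Dividing by the median ratio of all genes turned the median log2 ratio of promoter RPB1 of the members from -0.40 to 0.060. The 23 lower and 1 higher members became 4 and 5 with that division, 5 lower at 2-fold, and 40 lower and 2 higher, with a median of -0.61, by area (fold enrichment times length). For body phospho-Ser2 RPB1, the 4 lower and 4 higher became 1 lower at a −log10 q of at least 5, 2 lower after division, 0 and 0 at 2-fold, and 24 and 9 by area, with a median of -0.43 in place of -0.15; by position the median was -0.03, and where the highest regions lay at the same place, a choice made after seeing the data, it was -0.12 with 0 higher. The 29 members with body RPB1 in both genotypes became 17 at that q and 16 with 50% reciprocal overlap. The body share of phospho-Ser2 RPB1 exceeded that of RPB1 by 17.4 percentage points in SHP-1 WT cells, and by 24.5 at that q. The cause of these moves was not tested; no sample could be left out with 1 library per group. No paired analysis was possible because each group had 1 library. The unknown depth limits all comparisons of region counts between libraries.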
